A study of Homo sapiens with 6 samples.

Results

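TPD52, TMED7, MZT1, MOB4, UBE2D1, UBE2W, LYPLA1, PPP1CB, NECAB1 and IER3IP1 are 10 protein-coding genes that stood above the control with both PLXND1 siRNAs in the H660 cell line. They are 10 of the 58735 genes of the deposited table, and all 10 are among the 15638 genes with enough signal to be tested, NECAB1 through its H660 libraries alone. They were selected on the H660 values themselves, by the smaller of the 2 differences from the H660 control, so their height in H660 is a description with no test. Among protein-coding genes they hold ranks 2 to 5 and 8 to 13 by that measure, and the protein-coding genes at ranks 1, 6 and 7 are not members. The values that could be tested are those of the second cell line, C4-2B MDVR, which had no part in the choice.

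The study sequenced messenger RNA from 2 human prostate cancer cell lines after RNA interference against PLXND1, the gene of the semaphorin receptor Plexin D1. It asks what the receptor does in the shift of treatment-resistant prostate cancer towards a neural state. The H660 groups were cells with siRNA 1 or siRNA 2 against PLXND1 (2 libraries) and cells with a control siRNA (1 library). The C4-2B MDVR groups were cells with the same numbered PLXND1 siRNAs (2 libraries) and cells with a control siRNA (1 library). H660 is a line derived from a neuroendocrine prostate cancer, and C4-2B MDVR was derived from C4-2B cells and resists enzalutamide, a drug given against prostate cancer. Each line is an established culture, so the results hold for these lines and not for tumours. Whether each library had a culture of its own is not given in the labels, and no siRNA was repeated within a line. The p-values therefore measure only the spread between the libraries with siRNA 1 and siRNA 2.

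The libraries held 17655802 to 24105369 fragments assigned to genes. PLXND1 itself had 7.62 and 7.54 FPKM (fragments per kilobase of exon, scaled to the size of the library) with the siRNAs in H660, against 9.13 FPKM in the H660 control, so 83.5% and 82.6% of the control level was left. In C4-2B MDVR it had 1.57 and 3.10 FPKM with the siRNAs, against 7.40 FPKM in the control, which is 21.2% and 41.8%. The difference in C4-2B MDVR was -1.37 ± 0.31 (SE) on the log2(FPKM + 1) scale, with an adjusted p of 0.711. In H660 it was -0.24 ± 0.31 (SE), which is smaller than its SE, and the spread behind both SEs was shared by the lines. The PLXND1 transcript had a GC content of 63.5%, in the highest of the 10 GC bins described further on. The H660 medians of that bin were -0.12 with siRNA 1 and 0.00 with siRNA 2. The 10 genes thus belong to the line in which the PLXND1 level stood nearer to its control. The 8 neuroendocrine markers summed to 757 and 786 FPKM with the siRNAs in H660, against 762 FPKM in its control. In C4-2B MDVR they summed to 5.54 and 3.73 FPKM with the siRNAs, against 4.69 FPKM in the control. The 10 stromal, endothelial and immune markers summed to 9.82 and 9.45 FPKM with the siRNAs in H660 against 12.1 FPKM in its control, and to 6.14 and 3.62 FPKM in C4-2B MDVR against 3.66 FPKM. Mitochondrial genes gave 9.47% and 9.64% of the fragments with the siRNAs in H660 against 8.58% in its control, and 7.44% and 6.83% in C4-2B MDVR against 3.38%.

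Several of the 10 genes act in the early secretory pathway or in ubiquitin transfer. Newly made membrane and secreted proteins leave the endoplasmic reticulum in coated vesicles, pass through the Golgi and reach the cell surface, and cargo receptors of the p24 family select what is carried. Ubiquitin is passed from an activating E1 enzyme to a conjugating E2 enzyme and then, with the help of an E3 ligase, to a target protein. The others serve protein phosphatase and STRIPAK signalling, microtubule nucleation, removal of palmitate from proteins and calcium binding, so the 10 genes do not form a single known pathway. In the bulk libraries, more transcript per cell and more cells that carry it cannot be told apart.

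Sequence was taken from RefSeq promoters of GRCh38.p14 for the 5 members found in that table (TMED7, MZT1, MOB4, UBE2D1 and PPP1CB) and from GENCODE 29 coding sequences. The promoters of TMED7, MZT1 and MOB4 are shown because these 3 have the largest H660 differences among the 5, cut where an annotated transcript begins. Capitals mark the CCAAT box, searched as CCAAT on both strands, so that ATTGG is the same box on the other strand.
TMED7, chr5:115626174-115626286, minus strand: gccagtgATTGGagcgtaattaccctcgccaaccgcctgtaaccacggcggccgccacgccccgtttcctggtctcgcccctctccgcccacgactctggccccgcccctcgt
MZT1, chr13:72727688-72727879, minus strand: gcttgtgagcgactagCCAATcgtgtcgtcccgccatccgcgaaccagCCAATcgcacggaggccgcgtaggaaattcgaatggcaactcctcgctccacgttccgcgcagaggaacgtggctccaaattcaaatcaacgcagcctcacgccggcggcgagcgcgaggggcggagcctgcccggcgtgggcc
MOB4, chr2:197515304-197515553, plus strand: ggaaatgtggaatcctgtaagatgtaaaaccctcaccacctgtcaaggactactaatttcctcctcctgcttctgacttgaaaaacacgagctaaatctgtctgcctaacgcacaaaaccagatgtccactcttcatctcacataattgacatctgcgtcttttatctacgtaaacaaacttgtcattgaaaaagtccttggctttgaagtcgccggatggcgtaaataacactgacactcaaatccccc
In the 250 bases before the start, the box was present in 2 of the 5 promoters, those of TMED7 and MZT1, and in 35.3% of 9774 promoters of tested genes. None of the 5 held CCGGAAG (an ETS factor motif, in 16.3% of promoters), TGACGTCA (the cyclic AMP response element, 2.95%), TGATGCAAT (an ATF4 motif, 0.102%) or TATAAA (the TATA box, 5.01%). These are matches of letters only, and no motif was common to the 5. The GC content of the 5 promoters was 42.8% to 68.4% with a median of 63.6%, next to a median of 65.2% over all 9774.

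The coding sequences of MZT1 and IER3IP1 are shown because they are the shortest of the 10, at 246 bases each. In all 10 genes the coding part had a higher GC content than the 3′ untranslated region, described further on.
MZT1 coding sequence, chromosome 13: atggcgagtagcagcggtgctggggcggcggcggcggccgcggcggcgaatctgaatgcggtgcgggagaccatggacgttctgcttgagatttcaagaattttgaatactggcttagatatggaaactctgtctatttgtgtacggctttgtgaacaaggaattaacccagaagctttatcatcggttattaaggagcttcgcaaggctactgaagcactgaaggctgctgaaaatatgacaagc
IER3IP1 coding sequence, chromosome 18: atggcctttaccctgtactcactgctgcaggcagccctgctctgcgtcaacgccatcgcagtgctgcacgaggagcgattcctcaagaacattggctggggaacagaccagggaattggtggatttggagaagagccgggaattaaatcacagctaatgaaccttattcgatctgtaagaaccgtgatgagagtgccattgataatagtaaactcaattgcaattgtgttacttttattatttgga
The MZT1 coding sequence had a GC content of 50.4% and that of IER3IP1 46.3%, both without the stop codon.

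TPD52, TMED7 and IER3IP1 are the 3 members with a role in membrane traffic. TPD52 (ENSG00000076554, chr8:80034745-80231232, minus strand) encodes tumor protein D52, a coiled-coil protein of vesicle traffic that is often overexpressed in prostate cancer. It had 52.8 and 48.8 FPKM with siRNA 1 and siRNA 2 in H660, against 15.5 FPKM in the H660 control. Both siRNA libraries were high, at 3.42-fold (95% interval 3.28 to 3.56) and 3.15-fold (3.03 to 3.28) of the control. These intervals are exact binomial intervals from the fragment numbers and cover counting error only. In C4-2B MDVR it had 14.0 and 11.9 FPKM with the siRNAs, against 13.4 FPKM in the control, so that the control lay between them. The difference there was -0.05 ± 0.17 (SE) on the log2(FPKM + 1) scale, with an adjusted p of 1 by limma.

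TMED7 (ENSG00000134970, chr5:115613508-115632992, minus strand) encodes a p24 cargo receptor that cycles between the endoplasmic reticulum and the Golgi. It had 10.6 and 9.33 FPKM with the siRNAs in H660, against 2.70 FPKM in the control, while C4-2B MDVR had 18.5 and 21.7 FPKM with the siRNAs, against 20.5 FPKM in its control. The H660 siRNA libraries were 3.93-fold and 3.46-fold of their control and stayed below all 3 C4-2B MDVR libraries. The C4-2B MDVR difference was -0.03 ± 0.18 (SE) with an adjusted p of 1. TMED7 shares 24.01% of its exon bases with TMED7-TICAM2, a read-through transcript on the same strand, which had 0 to 6 fragments in every library, against 260 or more for TMED7.

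IER3IP1 (ENSG00000134049, chr18:47152834-47176374, minus strand) encodes a small membrane protein of the endoplasmic reticulum, related to a yeast protein needed for transport to the Golgi. It had 14.1 and 14.0 FPKM with the siRNAs in H660, against 6.05 FPKM in the control. In C4-2B MDVR it had 6.35 and 6.91 FPKM with the siRNAs, against 4.91 FPKM in the control, so both siRNA libraries lay above the control in this line too. The ratios there were 1.29-fold (1.14 to 1.47) and 1.41-fold (1.23 to 1.61). The difference of 0.37 ± 0.15 (SE) was the largest of the 10 genes in C4-2B MDVR, with an unadjusted p of 0.0606 and an adjusted p of 0.863 by limma.

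UBE2D1 and UBE2W are ubiquitin-conjugating enzymes. UBE2D1 (ENSG00000072401, chr10:58334975-58370753, plus strand) works with many E3 ligases. It had 15.1 and 12.6 FPKM with the siRNAs in H660, against 5.01 FPKM in the control, while C4-2B MDVR had 5.91 and 6.98 FPKM with the siRNAs, against 5.30 FPKM in its control. The siRNA libraries were the higher ones in both lines, by 3.02-fold and 2.51-fold in H660 and by 1.12-fold (0.969 to 1.29) and 1.32-fold (1.14 to 1.52) in C4-2B MDVR. The C4-2B MDVR difference was 0.24 ± 0.19 (SE), with an adjusted p of 0.957.

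UBE2W (ENSG00000104343, chr8:73780097-73878910, minus strand) can join ubiquitin to the amino terminus of a protein. It had 9.87 and 8.85 FPKM with the siRNAs in H660, against 3.39 FPKM in the control. In C4-2B MDVR its 3 libraries lay close together, at 4.58 and 4.23 FPKM with the siRNAs and 4.14 FPKM in the control. The difference there was 0.07 ± 0.16 (SE) with an adjusted p of 1, and it was -0.01 once mitochondrial genes and short RNAs were left out and the libraries rescaled.

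MOB4 and PPP1CB are tied to protein phosphatases. MOB4 (ENSG00000115540, chr2:197515571-197553699, plus strand), also called phocein, is a subunit of STRIPAK, a complex of protein phosphatase 2A with striatins and kinases. It had 9.68 and 8.17 FPKM with the siRNAs in H660, against 2.95 FPKM in the control. In C4-2B MDVR the siRNAs gave opposite results, 5.56 FPKM with siRNA 1 and 9.87 FPKM with siRNA 2, on either side of 7.22 FPKM in the control. The ratios were 0.770-fold (0.683 to 0.868) and 1.37-fold (1.23 to 1.53), each beyond counting error, and the mean difference was 0.04 ± 0.35 (SE) with an adjusted p of 1, or -0.05 after that rescaling. HSPE1-MOB4, a read-through transcript that shares 16.2% of the exon bases of MOB4, had at most 1 fragment in any library.

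PPP1CB (ENSG00000213639, chr2:28751640-28802940, plus strand) encodes a catalytic subunit of protein phosphatase 1 that is also the one found in myosin phosphatase. It had 37.2 and 35.1 FPKM with the siRNAs in H660, against 15.2 FPKM in the control, while C4-2B MDVR had 43.4 and 36.6 FPKM with the siRNAs, against 34.6 FPKM in its control. The H660 siRNA libraries thus lay near the C4-2B MDVR levels and the H660 control lay below them. The C4-2B MDVR difference was 0.20 ± 0.18 (SE) with an adjusted p of 0.970. SPDYA, which shares 7.99% of its exon bases on the same strand, had 3 to 10 fragments per library.

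MZT1, LYPLA1 and NECAB1 have roles of their own. MZT1 (ENSG00000204899, chr13:72708357-72727687, minus strand) encodes a very small protein that binds the gamma-tubulin ring complex, from which microtubules grow at spindle poles. It had 17.9 and 16.3 FPKM with the siRNAs in H660, against 5.27 FPKM in the control. In C4-2B MDVR it had 7.08 and 11.1 FPKM with the siRNAs, against 10.6 FPKM in the control, so siRNA 1 gave 0.666-fold (0.578 to 0.767) and siRNA 2 gave 1.04-fold (0.915 to 1.19) of the control. The mean difference of -0.23 ± 0.28 (SE) was the lowest of the 10 genes in that line, with an adjusted p of 0.990. The processed pseudogenes MZT1P1 and MZT1P2 had at most 3 fragments in any library.

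LYPLA1 (ENSG00000120992, chr8:54046367-54102017, minus strand) encodes acyl-protein thioesterase 1, which removes palmitate from proteins. It had 31.6 and 30.1 FPKM with the siRNAs in H660, against 12.9 FPKM in the control. In C4-2B MDVR it had 19.9 FPKM with siRNA 1 and 31.9 FPKM with siRNA 2, on either side of 24.6 FPKM in the control, and the difference was 0.03 ± 0.31 (SE) with an adjusted p of 1, or -0.06 after that rescaling. Its processed pseudogene LYPLA1P3 had 16 and 21 fragments with the siRNAs in H660 against 9 in the control, next to 3490 and 3638 against 1497 for LYPLA1. How reads shared with a pseudogene were assigned is not given in the sources used here.

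NECAB1 (ENSG00000123119, chr8:90791550-90959408, plus strand) encodes a calcium-binding protein of neurons with EF-hand motifs and is the member of lowest level. It had 1.71 and 2.05 FPKM with the siRNAs in H660, from 258 and 338 fragments, against 0.271 FPKM from 43 fragments in the control. This is 6.32-fold (4.56 to 8.95) and 7.55-fold (5.49 to 10.6) of the control, the highest ratios of the 10 genes, although its difference on the log2(FPKM + 1) scale was only 1.09 and 1.26 because that scale compresses low levels. In C4-2B MDVR it had 0 fragments in all 3 libraries, which allows up to 0.0232 and 0.0288 FPKM with the siRNAs and 0.0226 FPKM in the control (3 fragments per library), and no difference could be computed. C8orf88, whose exons overlap 394 bases of NECAB1 on the opposite strand, had 11.7 and 10.4 FPKM with the siRNAs in H660, against 10.7 FPKM in the control, and 0 fragments in C4-2B MDVR. TMEM64, which overlaps 83 bases on the opposite strand, had 4.61 and 4.67 FPKM with the siRNAs in H660, against 2.50 FPKM in the control. In C4-2B MDVR TMEM64 had 716 and 990 fragments with the siRNAs and 1249 in the control. NECAB1 had 0 in these libraries, so no TMEM64 reads were counted for it there. Whether counting used the strand is not given in the sources used here. Reads of NECAB1 and of C8orf88 in their overlap therefore cannot be told apart, and for TMEM64 in H660 this was not tested.

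**Figure D1:**
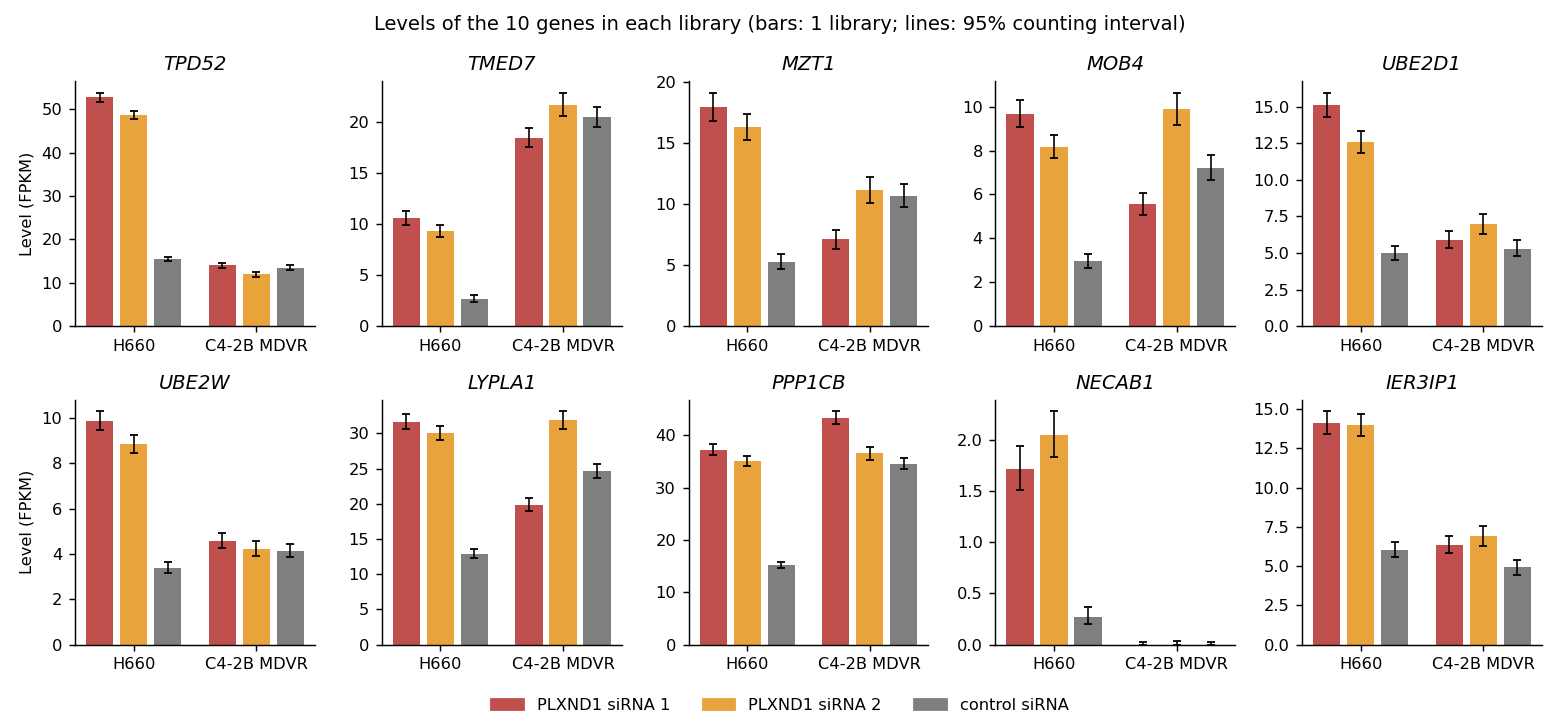
Level of each gene in FPKM (vertical axis, from 0, a scale of its own per gene) in the 6 libraries, with PLXND1 siRNA 1, PLXND1 siRNA 2 and control siRNA from left to right within each line; each bar is 1 library and the lines are 95% counting intervals. Both H660 siRNA bars exceed the H660 control bar in all 10 panels, while in C4-2B MDVR the control bar lies between the siRNA bars for TPD52, TMED7, MZT1, MOB4 and LYPLA1 and NECAB1 has no signal.

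The ratios to the control in H660 ran from 2.31-fold to 7.55-fold over the 10 genes and both siRNAs, with a median of 2.97-fold. On the log2(FPKM + 1) scale the mean differences ran from 1.65 for TPD52 to 1.09 for IER3IP1, with a median of 1.27 next to a median of -0.01 over all genes tested. Both H660 comparisons use the same control library, so a low value in that 1 library raises both, and the closeness of the siRNAs is no second observation. Of the 15638 genes, 59 (0.377%) were at least 1 unit above the control with both siRNAs in H660, and the 10 genes are among them by the rule. The last member was IER3IP1 at 1.09 for its smaller difference, and the first protein-coding genes outside were GPR160 at 1.03 and GOLT1B at 1.00. GOLT1B encodes a Golgi vesicle transport protein. Above the last member there were 50 genes of any type, of which 38 were not protein-coding.

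The siRNAs differed in size. In H660 the difference was larger with siRNA 1 than with siRNA 2 for 9 of the 10 genes, with medians of 1.37 and 1.20, and NECAB1 was the exception. The medians over all genes tested were -0.016 and -0.0015. The tenth of protein-coding genes lowest in GC content, described further on, also stood higher with siRNA 1, at 0.31 and 0.23. In C4-2B MDVR siRNA 1 gave the higher value for 3 of the 9 genes with a value and siRNA 2 for 6, with medians of 0.06 and 0.08. Over all genes tested the medians there were 0.008 and 0.013. The share of all genes higher with siRNA 1 is not given for either line, so these counts are descriptions.

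In C4-2B MDVR the levels with the siRNAs lay on both sides of the control. The median difference of the 9 genes with a value was 0.04, next to 0.02 over all genes tested, with a range of -0.23 to 0.37. Of these, 4 of 9 were above the control with both siRNAs (PPP1CB, UBE2D1, UBE2W and IER3IP1), 0 of 9 were below it with both, and 5 of 9 had opposite signs. The count above the control was 2 of 9 with rescaling after mitochondrial genes and short RNAs were left out, and 2 of 9 by voom. The median over all genes was then -0.03 and -0.09. Without the siRNA 1 library 8 of 9 were above the control, and without the siRNA 2 library 5 of 9. These last counts rest on 1 siRNA and cannot be set beside counts that need both. The share over all genes is not given for these settings. Over all 15638 genes, 32% were above the control with both siRNAs and 25.8% were below it with both. None of the 9 reached a difference of 1 unit with both siRNAs, as 0.671% of all genes did. By limma with Benjamini-Hochberg adjustment over all 15638 genes, 0 genes passed in C4-2B MDVR (0%) and 0 in H660 (0%). At an unadjusted p under 0.05, 921 genes stood out in C4-2B MDVR, with 0 of the 9 among them, and 647 in H660. Limma's voom on the recovered fragments also gave 0 calls in each line, with 991 and 557 genes at an unadjusted p under 0.05. An exact permutation test of 2 libraries against 1 cannot go below a p of 0.333. A p that misses the threshold in this design does not show that the levels were equal. The difference between the lines in the response of the 10 genes was not tested, since the H660 values chose them.

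**Figure D2:**
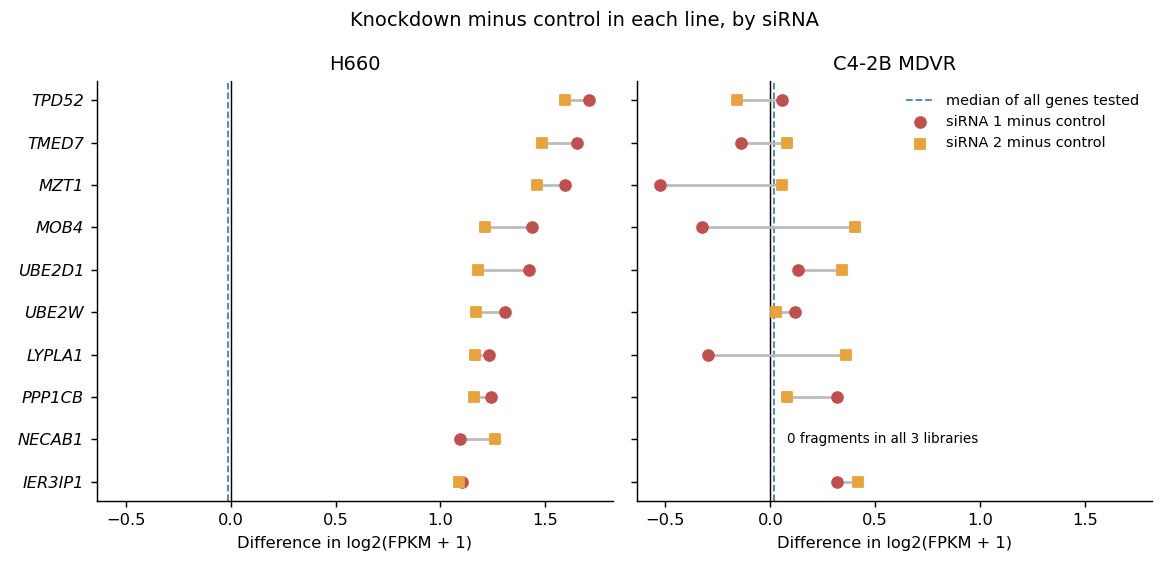
Knockdown minus control on the log2(FPKM + 1) scale (horizontal axis) for each gene in H660 (left) and C4-2B MDVR (right), with circles for siRNA 1, squares for siRNA 2 and a dashed line at the median of all genes tested. In H660 all points lie between 1.09 and 1.71, and in C4-2B MDVR the points lie between -0.53 and 0.42, with the widest gaps between siRNAs for MOB4, LYPLA1 and MZT1.

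In the control libraries, 7 of the 9 genes with a value in both lines were lower in H660 than in C4-2B MDVR, as were 50.8% of the 14340 tested genes above 0 in both controls. A low H660 control favours a gene under the rule, so this count is a description. The H660 control had 0.132 times the C4-2B MDVR control for TMED7, 0.409 for MOB4, 0.439 for PPP1CB, 0.496 for MZT1, 0.524 for LYPLA1, 0.817 for UBE2W and 0.945 for UBE2D1, and 1.15 for TPD52 and 1.23 for IER3IP1. With the PLXND1 siRNAs, the mean H660 level over the mean C4-2B MDVR level was 0.496 for TMED7, 0.904 for PPP1CB, 1.16 for MOB4 and 1.19 for LYPLA1. It was 1.88 to 2.15 for MZT1, UBE2D1, UBE2W and IER3IP1 and 3.92 for TPD52.

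The relatives of the 10 genes in the same families were measured to see whether a whole pathway stood with them. These lists were written with earlier results of these data known, and 0 of their genes passed in either line. As background for the counts, 32.1% of all 15638 genes were above the H660 control with both siRNAs and 38.3% below it with both, and 32% and 25.8% were so in C4-2B MDVR. TMED2, TPD52L1, MAL2, UBE2D2, UBE2D3, UBE2D4, MOB1A, PPP1CC, MZT2B and LYPLAL1, close relatives or partners of the 10 genes, were named after their values were seen. Among the 8 other p24 receptors, 6 were above the H660 control with both siRNAs and 1 below, with a median difference of 0.08, and 3 were above and 1 below in C4-2B MDVR, with a median of 0.03. TMED5, named after its values were seen, stood at 0.92 with siRNA 1 and 0.86 with siRNA 2 in H660. TMED2 and TMED10, the most studied members of the family, stood at 0.16 and 0.10 on average in H660. Among genes with the same sign for both siRNAs, TMED9, TMED3 and TMED10 had the largest C4-2B MDVR differences of the list, at 0.21, 0.13 and -0.10.

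Other lists of traffic genes had medians of 0.01 to 0.22 in H660. Of the 8 relatives of IER3IP1 among the YIP1 and YIF1 proteins, 7 were above the H660 control with both siRNAs and 1 below (median 0.22), and 3 above and 1 below in C4-2B MDVR (median 0.08). YIPF5, a Golgi protein of that family, stood at 0.23 in H660 and 0.15 in C4-2B MDVR. Of 22 COPII and COPI coat genes, 9 were above and 7 below in H660 (median 0.01), and 15 above and 1 below in C4-2B MDVR (median 0.19). SAR1A, the GTPase that starts COPII coat assembly, stood at 0.08 in H660 and 0.51 in C4-2B MDVR, SEC24A at 0.23 and 0.42, and ARF4 at 0.26 and 0.39. Of 23 SNAREs, tethers and RAB GTPases between the endoplasmic reticulum and Golgi, 16 were above and 4 below in H660 (median 0.14), and 13 above and 0 below in C4-2B MDVR (median 0.17). BET1L, RAB1A and KDELR3 had the largest C4-2B MDVR differences there, at 0.67, 0.55 and 0.55. The TPD52 relatives TPD52L1 and TPD52L2 stood at 0.15 and 0.03 in H660, and MAL2, a traffic protein that binds TPD52, at 0.57. All 3 were above the H660 control with both siRNAs, and 1 of 3, TPD52L2, in C4-2B MDVR.

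Among the 32 other E1 and E2 enzymes, 20 were above the H660 control with both siRNAs and 8 below, with a median of 0.09, and 15 were above and 8 below in C4-2B MDVR, with a median of 0.09. The closest relatives of UBE2D1 differed from it, with UBE2D2 at -0.03, UBE2D3 at 0.25 and UBE2D4 at 0.06 in H660. Other E2 enzymes, named after their values were seen, stood higher, with UBE2E1 at 0.72, UBE2V2 at 0.61 and UBE2B at 0.51. In C4-2B MDVR the largest differences were those of UBE2L6, the E2 of the ubiquitin-like protein ISG15, at 1.19 with an adjusted p of 0.466, CDC34 at 0.55 and UBE2H at 0.51.

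In the STRIPAK complex, 7 of the 17 other subunits were above the H660 control with both siRNAs and 6 below (median 0.10), and 8 above and 2 below in C4-2B MDVR (median 0.11). SIKE1 stood at 0.42 in H660, STRN3 at 0.13 and PPP2R1B at -0.06. Of the 5 other MOB genes, 3 were above and 2 below in H660 and 4 above and 0 below in C4-2B MDVR, with MOB1B, a Hippo pathway kinase activator named after its values were seen, at 0.79 in H660 and MOB1A at 0.33. MOB3C, MOB3A and MOB2 stood at -0.23, -0.19 and 0.02 in H660. Of the 11 other genes of the protein phosphatase 1 list, 4 were above and 5 below in H660, and 3 above and 3 below in C4-2B MDVR. The other catalytic subunits PPP1CA and PPP1CC stood at -0.13 and 0.29 in H660, and PPP1R2, an inhibitor of the phosphatase, at 0.60.

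Of the 11 other genes of the gamma-tubulin ring complex list, 3 were above and 5 below in H660, and 5 above and 5 below in C4-2B MDVR. MZT2A and MZT2B, the other small subunits of that kind, stood at -0.02 and 0.11 in H660, and NEDD1, which recruits the complex, at 0.42. Of the 8 other depalmitoylases, 3 were above and 1 below in H660, and 1 above and 1 below in C4-2B MDVR. LYPLA2, the closest relative of LYPLA1, stood at -0.07 in H660 and LYPLAL1 at 0.29. NECAB3 was the only other member of its family with enough signal, at 0.02 in H660 and 0.50 in C4-2B MDVR. In every list that holds one of the 10 genes, that gene had the largest H660 difference of the list, which the choice fixes. Once mitochondrial genes and short RNAs were left out and the libraries rescaled, the C4-2B MDVR medians of the p24, YIP1 and YIF1, and E1 and E2 lists were -0.06, -0.01 and 0.00, and the sign of these 3 medians in C4-2B MDVR therefore depends on the scaling.

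**Figure D3:**
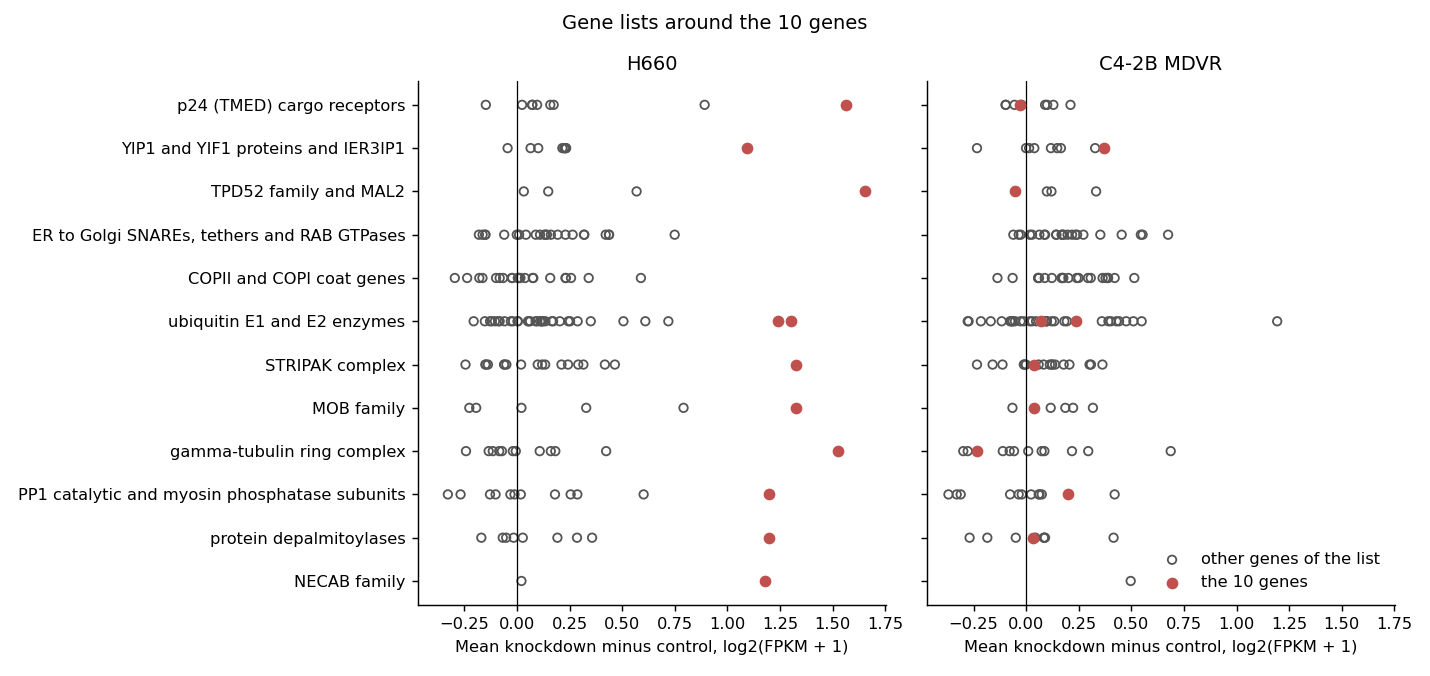
Mean knockdown minus control on the log2(FPKM + 1) scale (horizontal axis) for the genes of 12 lists (rows) in H660 (left) and C4-2B MDVR (right); filled points are the 10 genes and open points the other genes of each list, and MOB4 appears in 2 rows. In H660 the filled points lie at 1.09 or above and the open points at 0.89 or below, and in C4-2B MDVR both kinds overlap.

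The 10 genes resemble each other in the base composition of their transcripts. The 3 protein-coding genes that rank above the last member without being members do not share this, since they lie in higher GC bins, so 10 of the 13 highest-ranked protein-coding genes share it, and leaving out the other 3 makes the members more alike in GC. The GC content of the longest transcript was 32.0% to 37.7% over the 10 genes with a median of 36.2%, next to a median of 48.9% (quartiles 42.1% and 57.2%) over 12325 tested protein-coding genes. All 10 were below 38%, as were 7.98% of these genes, and all 10 fell into the lowest of 10 GC bins of equal gene number (30.2% to 38.6%). MZT1 had the lowest GC content, 32.0%, and LYPLA1 the highest, 37.7%. GC content was lowest in the 3′ untranslated region, where the 10 genes had 27.8% to 35.6% (median 31.1%, next to 43.0% over all genes), against 40.3% to 50.4% in the coding part (median 44.7%, next to 53.0%). In MZT1, whose coding sequence is printed above, 50.4% GC in the coding part stood beside 28.2% in the 3′ untranslated region, and in IER3IP1 46.3% beside 35.6%. The 3′ untranslated regions were 1701 to 7885 bases long with a median of 3201, next to 1598 over all genes and 2750 over the lowest GC bin, and all 10 exceeded the median over all genes. The motif ATTTA, the core of AU-rich elements that shorten the life of messenger RNAs, occurred 2.17 to 6.52 times per kilobase of transcript with a median of 4.15, next to 1.04 over all genes and 2.87 over the lowest GC bin.

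Base composition went with the H660 difference across all genes. In the lowest GC bin the median difference was 0.31 with siRNA 1 and 0.23 with siRNA 2 in H660, and 83.4% of the genes were above the control with both siRNAs. In the next 3 bins the siRNA 1 medians were 0.15, 0.07 and 0.00, and the highest bin had -0.12 with siRNA 1 and 0.00 with siRNA 2, where 18.0% were above with both. In C4-2B MDVR the lowest bin had medians of -0.01 and 0.01, with 28.1% above the control with both siRNAs, and the highest had 0.06 and 0.05. The length of the 3′ untranslated region went with the H660 medians in opposite directions for the siRNAs: the bin of the shortest regions had -0.05 with siRNA 1 and 0.02 with siRNA 2, and that of the longest had 0.03 and -0.02. The lowest GC bin held 10 protein-coding genes at least 1 unit above the H660 control with both siRNAs, and they are the 10 genes described here. A further 4 protein-coding genes were past 1 unit with both siRNAs, 1 in bin 2 (GPR160), 1 in bin 3 and 2 in bin 5, counted from the lowest GC content. Each of the 10 was above the median of its GC bin in H660 by 0.83 to 1.39 units, with a median of 1.00, and at or above percentile 99.1 of that bin. The choice on H660 values fixes this place in the bin, so it is a description only. The part of base composition in the H660 result was not tested.

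**Figure D4:**
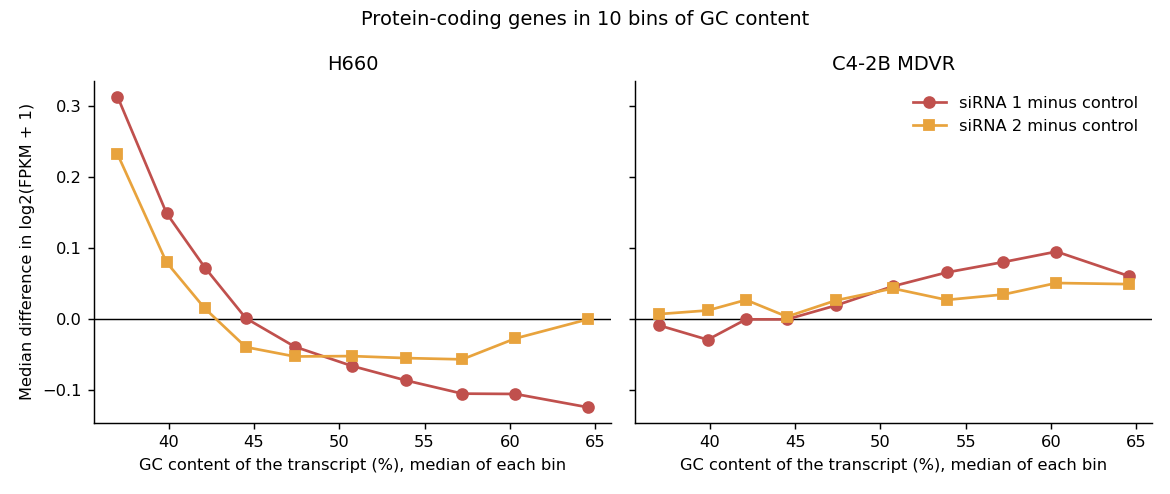
Median knockdown minus control on the log2(FPKM + 1) scale (vertical axis) of protein-coding genes in 10 bins of transcript GC content (horizontal axis, median GC of each bin in percent), in H660 (left) and C4-2B MDVR (right), with circles for siRNA 1 and squares for siRNA 2. In H660 the lowest bin lies at 0.31 and 0.23 and both medians are below 0 by bin 5, and in C4-2B MDVR all medians lie between -0.03 and 0.10.

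**Figure D5:**
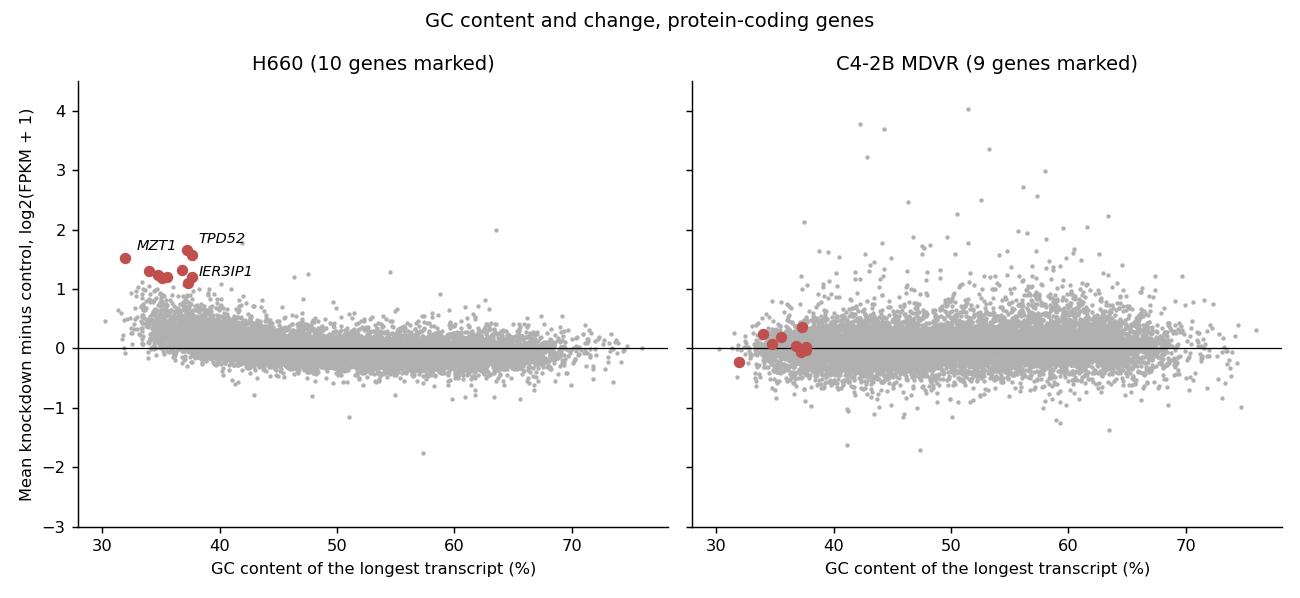
Mean knockdown minus control on the log2(FPKM + 1) scale (vertical axis) against the GC content of the longest transcript in percent (horizontal axis) for 12325 protein-coding genes (grey) in H660 (left) and C4-2B MDVR (right), with the described genes in red, 10 on the left and the 9 with a value on the right. The red points on the left lie at the low GC end between 1.09 and 1.65. They lie above nearly all grey points of like GC there, which the choice on H660 values fixes. On the right the red points lie between -0.23 and 0.37 among the grey points.

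The relatives described above can be set beside this measure. TMED5, UBE2V2 and MOB1B, which stood high in H660, had a GC content of 37.4%, 34.3% and 34.3%, whereas PPP1CA, LYPLA2, MZT2A and MZT2B, which stood between -0.13 and 0.11, had 61.4%, 61.9%, 61.3% and 67.8%. UBE2E1, at 0.72, had 42.8%. UBE2A, a low GC relative at 34.6% that was named after its values were seen, stood at 0.12 in H660, and YIPF5, at 36.9%, at 0.23. COPB2 of the coat list, at 37.2%, and STRN of STRIPAK, at 37.8%, stood at 0.01 and 0.02. They too were named after their values were seen. A low GC content thus did not always go with a large H660 difference, and these genes are examples, not a test. GPR160, just outside the rule, had 40.1%.

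Of the 10 genes, 4 lie on chromosome 8 (TPD52, UBE2W, LYPLA1 and NECAB1), where 3.55% of the tested protein-coding genes lie. The 438 tested protein-coding genes of chromosome 8 had median H660 differences of 0.01 with siRNA 1 and 0.00 with siRNA 2, so the chromosome as a whole did not stand above the control. The neighbours of TPD52 were MRPS28, at 0.09 and 0.12, and ZBTB10, at 0.74 and 0.37. Those of UBE2W were STAU2, at 0.16 and 0.08, and ELOC, at 0.14 and 0.33. Those of LYPLA1 were TCEA1, at 0.57 and 0.53, and MRPL15, at 0.23 and 0.15. NECAB1 lay next to PIP4P2, at 0.58 and 0.46, and CALB1, whose signal was too low to be tested. None of the 7 tested neighbours reached the difference of the member beside it. The members were chosen for high H660 values, so this was nearly fixed in advance. A part of chromosome position in the H660 result was not tested.

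Among 9462 genes with a mean of at least 1 FPKM in both lines, TMEM38B, CENPK and PCLAF had profiles over the 6 libraries among the 5 most like the mean profile of the 10 genes, with mean absolute distances of 0.136, 0.140 and 0.168 log2 units. The members themselves lay 0.142 (MZT1) to 0.858 (TMED7) from their own mean profile. TMEM38B, a potassium channel of the endoplasmic reticulum, had 9.40 and 9.04 FPKM with the siRNAs in H660 against 4.77 FPKM in the control, while C4-2B MDVR had 5.24 and 5.87 FPKM with the siRNAs, against 5.34 FPKM in its control. CENPK, a centromere protein, had 7.14 and 6.25 FPKM with the siRNAs in H660 against 3.17 FPKM in the control, while C4-2B MDVR had 2.80 and 4.08 FPKM with the siRNAs, against 3.70 FPKM in its control. TMEM38B and CENPK had a GC content of 34.0% and 32.9%, and PCLAF had 41.6%.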

How the data were processed

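Messenger RNA was sequenced from 2 prostate cancer cell lines as paired reads of 150 bases, per the labels' protocols. Reads were handled with HISAT and Cufflinks and the build is given as hg18, per the submitters' processing notes, with no versions. The deposited values are FPKM computed by the authors for 58735 genes. Their IDs are all in GENCODE 29 (GRCh38), from which names, coordinates and transcript features come, and no coordinates were converted. Exon lengths of that release also turned the FPKM values into whole fragments, as given below. The gene models behind the values thus match GENCODE 29, which conflicts with the hg18 of the notes. Which build the reads were aligned to is not settled here.

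FPKM times exon length gave whole fragments (within 0.05) in 100.0% of the genes of at most 100 fragments in each library, and fragment numbers were recovered on that basis. Totals were 17655802 to 24105369 per library. The scale was log2(FPKM + 1), and the tests were those of limma 3.58.1 under R 4.3.3 (trend, two-sided, Benjamini-Hochberg, threshold 0.05), for 15638 genes with a mean of at least 1 FPKM over the 3 libraries of at least 1 line. All 6 libraries entered 1 fit with a mean for each of the 4 groups (residual degrees of freedom: 2), which takes each lone control to vary as the siRNA libraries do. The siRNA numbers name the siRNA and pair nothing else: over genes, the difference between siRNA 1 and siRNA 2 correlated between the lines at -0.004 as a description. The scripts were tested on simulated data.

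The 10 genes, the gene lists and the tests were chosen with earlier results of these data known. Genes other than the 10 were named by a rule: overlapping genes, up to 3 per list with the largest C4-2B MDVR difference among those with the same sign for both siRNAs, the 5 most like the mean profile, and neighbours on chromosome 8; others, among them close relatives of the 10 genes, were named after their values were seen. A few items that the rule or the lists take are not reported here. RefSeq promoters matched 5 of the 10 genes. GC content and motif counts refer to the longest GENCODE transcript. Alternatives were another pseudocount, no filter, quantile normalization, rescaling, voom, a block for the siRNA number, leaving out each siRNA library, and GC adjustment.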

Additional observations from a re-analysis of the deposited data

Results flagged for a closer look

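The median difference of all protein-coding genes, from which the 10 genes are read, had opposite signs in the lines for 5 of the 10 GC bins, with each siRNA below the control in H660 and above it in C4-2B MDVR. H660 minus C4-2B MDVR was -0.0736 log2 units in bin 5, counted from the lowest GC content, -0.112 in bin 6, -0.122 in bin 7, -0.146 in bin 8 and -0.143 in bin 9. The difference between the lines was not tested, and none of the 10 genes lies in these bins.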

How the results depend on the processing

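Of 110 values of the 10 genes in H660 over all alternatives, 83 differed from the reported value by less than the spread between the siRNAs and 27 by more, all between 0.82 and 2.76 log2 units; of 99 values in C4-2B MDVR, 13 changed sign and all lay between -0.53 and 0.42. The H660 median of 1.27 was 1.501 with a pseudocount of 0.1 FPKM, 1.51 by voom and 0.998 with the median of each GC bin subtracted, an alternative chosen after seeing the data. The C4-2B MDVR median of 0.0392 was -0.00606 with quantile normalization, -0.0464 with rescaling without mitochondrial genes and short RNAs, -0.103 by voom (where the median of all genes was -0.09), and 0.0567 and 0.0808 when 1 C4-2B MDVR siRNA library was left out. The count of 4 genes above the C4-2B MDVR control with both siRNAs was 2 with rescaling and 2 by voom. The median of all genes was then -0.03 and -0.09. The share of all genes above the control is not given for these settings, so these counts are descriptions. With 1 C4-2B MDVR siRNA library left out the count was 5 and 8, counts that rest on the other siRNA alone. Leaving out an H660 library cannot change C4-2B MDVR values. MOB4 in C4-2B MDVR reversed to -0.00606 with quantile normalization, -0.0464 with rescaling and -0.116 by voom, LYPLA1 to -0.0330, -0.0612 and -0.103, and UBE2W to -0.00729 with rescaling and -0.0418 by voom; the cause was not tested. With a C4-2B MDVR library left out, TPD52 ran from -0.161 to 0.0567, TMED7 from -0.141 to 0.0808, MZT1 from -0.526 to 0.0580, MOB4 from -0.325 to 0.404 and LYPLA1 from -0.296 to 0.361, since the siRNAs stood on opposite sides of the control. The count of genes called among all genes was 0 in each line as reported. It was 1 in H660 with a pseudocount of 0.1 FPKM, 1 with quantile normalization and 1 with the replicate block for the siRNA number, and 2 in C4-2B MDVR with rescaling. With no filter it was 876 in H660 and 851 in C4-2B MDVR; the cause was not tested. The siRNA numbers pair no samples, and the replicate block changed no call of the 10 genes. With 1 control per line, no alternative without a control library was possible, and 43 fragments of NECAB1 in the H660 control set the precision of its ratios.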
